A study of Mus musculus with 8 samples.

Results

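The genes described here are 10 neutrophil chemokines and granulocyte genes, taken by their symbols from a panel of 750 immune-related genes. They comprise 5 chemokine ligands (Cxcl1, Cxcl2, Cxcl3, Cxcl5 and Ppbp), their receptor Cxcr2, the granulocyte growth factor Csf3 with its receptor Csf3r, the calcium-binding protein gene S100a8 and the surface receptor gene Trem1. All 10 were on the panel, and the accessions of their 10 probes matched genes of the same symbols in RefSeq.

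The samples were peritoneal tumors of male wild-type C57BL/6 mice, given by the study's methods as 7 to 8 weeks old, in which 500000 MC38 mouse colon cancer cells had been implanted. Treatment began 7 days later. The STING agonist group had 4 samples from mice given 15 µg of RR-CDA, a cyclic dinucleotide that activates the DNA-sensing adaptor STING, in 2 intraperitoneal injections 3 days apart, and the control group had 4 samples from mice given the same volume of PBS. Tumors were taken 10 days after the first injection, and the RNA of whole tumor tissue was counted with NanoString probes, without amplification. The labels name the tissue as colon and do not say whether each sample came from a separate mouse, so the p-values measure the spread between these samples. By the study's legends the samples were pooled from separate experiments, the labels do not say which sample belongs to which, and no such term could be fitted. Total counts over the 750 genes ran from 241724 to 403150 with PBS and from 241506 to 414698 with the agonist. PBS 2 and PBS 4 differed by less than counting error (chi-square 0.404 per degree of freedom over 358 genes, against 5.89 to 12.6 in the 11 other pairs within a group) and were averaged and counted as 1 sample, which left 3 PBS samples against 4 treated ones.

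Neutrophils leave the blood along gradients of CXC chemokines that carry a glutamate-leucine-arginine motif before their cysteines, and in the mouse these ligands act mainly through the receptor CXCR2. Macrophages, endothelium, fibroblasts and tumor cells make the ligands after signals such as interleukin-1 and tumor necrosis factor that activate NF-kB, while granulocyte colony-stimulating factor, the product of Csf3, drives the production of neutrophils in the marrow. In tumors, neutrophils and related myeloid cells drawn by these ligands are known both for suppressing T cells and for killing tumor cells.

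None of the 10 genes differed between the groups beyond the spread of the samples. In the edgeR quasi-likelihood fit over the panel, 0 of 10 had an unadjusted p under 0.05, against 143 of 750 panel genes (19.1%), 133 of them with a positive and 10 with a negative fold change. After Benjamini-Hochberg adjustment the counts were 0 of 10 and 0 of 750 (0%), and the lowest adjusted p of the panel was 0.171. The Wald test of DESeq2, run as an alternative, passed 44 panel genes after adjustment and 0 of the 10. The median log2 fold change of the 10 genes was 0.07, with 5 above 0, against a panel median of 0.21. Of the 10, 7 lay below the panel median. The sign of their median depended on the scaling. It was -0.21 with TMM, -0.23 with DESeq2 size factors and -0.14 with the total count, where the panel medians were -0.02, -0.04 and 0.008. Without STING agonist 1 the median of the 10 was -0.08, and without PBS 1 it was -0.06. It was 0.24 without PBS 2 and 4, against a panel median of 0.16. Without STING agonist 2 it was 0.24 (panel 0.26), and without STING agonist 4 it was 0.15 (panel 0.17). In each of these last settings 5 of the 10 lay below the panel median, so the number below it depended on single samples. Normalized counts of the 2 groups overlapped for all 10 genes, whereas they did not for 137 of the 750 genes (18.3%). With whole tumor RNA, fewer cells of a type and less RNA per cell cannot be told apart.

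**Figure D1:**
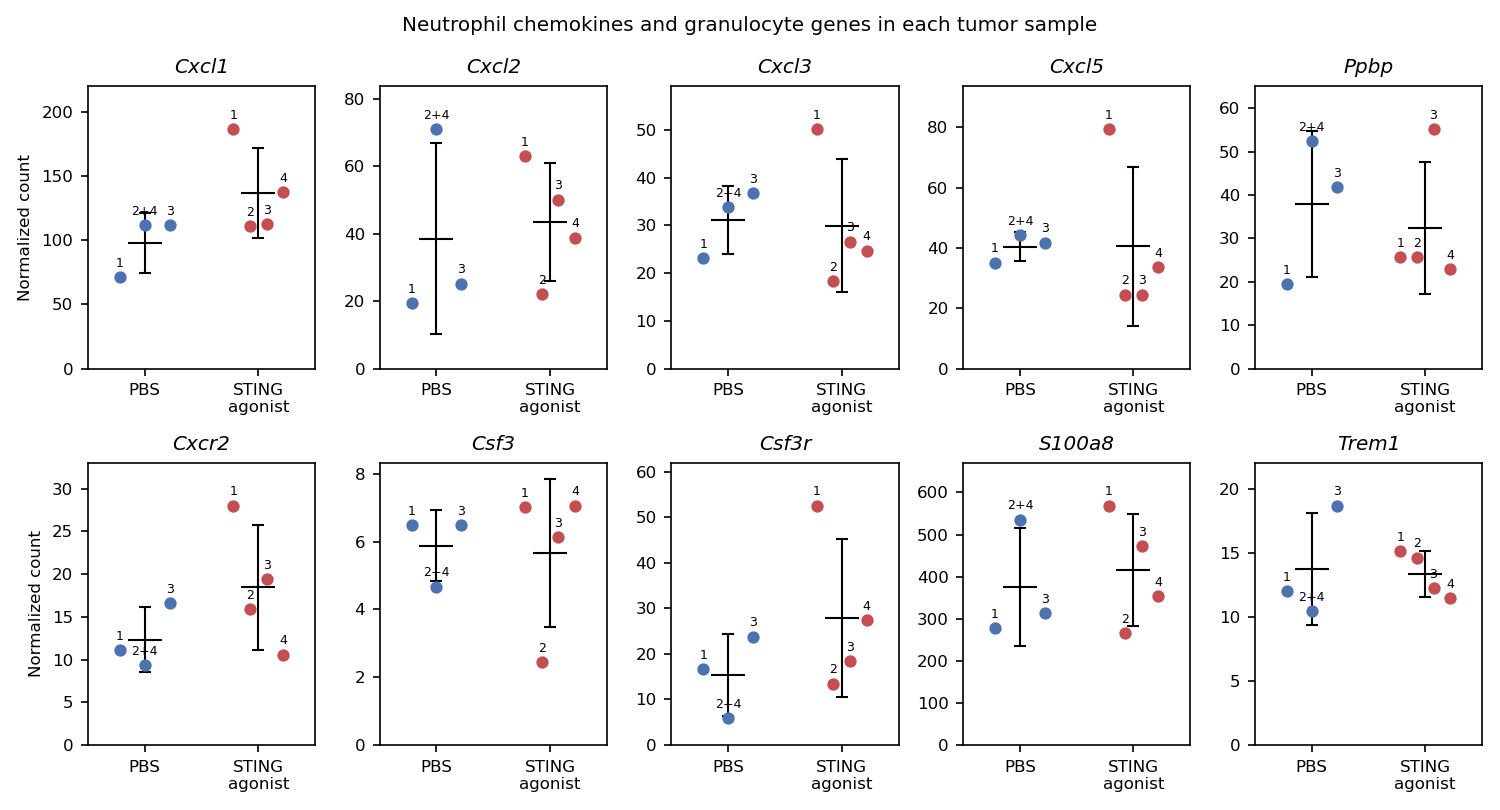
Normalized counts (counts scaled to the geometric mean of 20 housekeeping genes, linear axis) of the 10 genes in the 3 PBS samples (blue, with PBS 2 and 4 averaged) and the 4 STING agonist samples (red); numbers are replicates, horizontal lines are means and bars are SD. STING agonist 1 was the highest sample for 6 of the 10 genes, and the groups overlapped for each gene.

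Cxcl1, Cxcl2 and Cxcl3 encode the closely related ligands also known as KC, MIP-2 and DCIP-1, and they lie near one another on chromosome 5 in the order Cxcl5, Ppbp, Pf4, Cxcl3, Cxcl15, Cxcl1, Cxcl2. Their promoters are shown because the genes share a regulatory motif, beside that of Cxcl10, an interferon-induced chemokine gene on the same chromosome that is compared with them further on. The sequences are RefSeq promoters on GRCm38.p6, read 5′ to 3′ on the strand of the gene. The Cxcl1 stretch is chr5:90891125-90891244 on the + strand, the Cxcl2 stretch chr5:90903779-90903898 on the + strand, the Cxcl3 stretch chr5:90785981-90786100 on the + strand and the Cxcl10 stretch chr5:92348980-92349109 on the - strand. Capitals mark matches, on either strand, to GGAATTTCC, a form of the NF-kB motif, or to GAAANNGAA, a form of the interferon-stimulated response element.
Cxcl1: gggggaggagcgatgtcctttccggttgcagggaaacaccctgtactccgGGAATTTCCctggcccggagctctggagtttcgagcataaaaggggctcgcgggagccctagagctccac
Cxcl2: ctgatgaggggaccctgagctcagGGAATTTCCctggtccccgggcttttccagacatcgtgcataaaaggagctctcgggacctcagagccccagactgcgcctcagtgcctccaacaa
Cxcl3: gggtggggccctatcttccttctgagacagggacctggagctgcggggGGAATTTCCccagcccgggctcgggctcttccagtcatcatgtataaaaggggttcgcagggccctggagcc
Cxcl10: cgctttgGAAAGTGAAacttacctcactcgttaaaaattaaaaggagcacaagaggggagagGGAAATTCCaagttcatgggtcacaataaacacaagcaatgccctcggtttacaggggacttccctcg

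The NF-kB form began 70 bases before the start of Cxcl1, 96 before that of Cxcl2 and 72 before that of Cxcl3. Cxcl10 held it on the reverse strand, beginning 158 bases before its start, and held the response element form 213 bases before it. Promoters were matched for 8 of the 10 genes, all but Cxcl5 and Csf3. Of the 8, 3 held the NF-kB form in the window from 250 bases before to 50 after the start, as did 104 of 32851 promoters (0.317%). The search used 1 exact string, and the 3 are closely related neighbours shown because they share it. These shares are therefore a description and no test of enrichment. The response element form was in 2812 promoters (8.56%) and in 1 of the 8, Csf3r, where it began after the start and not before it. These matches describe letters and not binding.

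Cxcl1 was the ligand whose difference came nearest to the threshold. Its normalized count was 71.2, 112 and 112 in PBS 1, PBS 2 and 4 and PBS 3, and 187, 111, 112 and 138 in STING agonist 1 to 4. The means were 98.3 ± 23.4 (SD, n = 3) and 137 ± 35.4 (SD, n = 4). PBS 1 was the low sample and STING agonist 1 the high one, and 3 of the 4 treated samples lay above the highest PBS sample, although STING agonist 3 did so by less than 1 count. The log2 fold change was 0.48 (SE 0.26, 95% confidence interval -0.12 to 1.08, edgeR unadjusted p = 0.105, adjusted p = 0.359), and it was positive under each of the 5 other scalings, at 0.21 or more. The interval leaves room for a fold of 2.11 and for a fold of 0.919.

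Cxcl2 varied more within the groups than between them. Its normalized count was 19.4 in PBS 1, 71.1 in PBS 2 and 4 and 25.2 in PBS 3, and 63.1, 22, 50.1 and 38.8 in STING agonist 1 to 4. All treated samples lay within the range of the PBS samples, with PBS 2 and 4 highest and PBS 1 lowest. The log2 fold change of 0.19 (SE 0.52, 95% confidence interval -0.99 to 1.37, edgeR adjusted p = 0.891) turned to -0.14 with TMM scaling. Left to PBS 1 and 3 alone as controls, it was 0.96, the widest movement that leaving out PBS 2 and 4 gave to any of the 10 genes.

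Cxcl3 and Cxcl5, the latter a ligand made largely by epithelial and stromal cells, shared a different arrangement of samples. Cxcl3 had normalized counts of 23.1, 33.8 and 36.7 in PBS 1, PBS 2 and 4 and PBS 3, and 50.2, 18.3, 26.6 and 24.7 in STING agonist 1 to 4. For Cxcl5 the values were 35.2, 44.3 and 41.8, and 79.4, 24.4, 24.5 and 33.5. STING agonist 1 was above every PBS sample for both genes, and for Cxcl5 the 3 other treated samples were below every PBS sample, so that nearly equal group means (40.4 ± 4.72 with PBS, 40.5 ± 26.3 with the agonist, SD) came from 1 high and 3 low samples. The log2 fold changes were -0.06 for Cxcl3 (95% confidence interval -0.97 to 0.85, edgeR adjusted p = 0.956) and -0.00033 for Cxcl5 (95% confidence interval -0.999 to 0.999, edgeR adjusted p = 0.999). Without STING agonist 1 the value for Cxcl5 was -0.55, and it remained short of the threshold (edgeR unadjusted p = 0.129).

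Ppbp encodes the platelet basic protein, the precursor of the ligand CXCL7, and is stored in platelets. Its normalized count was 19.4, 52.4 and 41.8 in PBS 1, PBS 2 and 4 and PBS 3, and 25.7, 25.7, 55.2 and 22.9 in STING agonist 1 to 4. STING agonist 3 stood with the high PBS samples, and the other treated samples were close to one another and to PBS 1. This gave a log2 fold change of -0.22 (95% confidence interval -1.25 to 0.80, edgeR adjusted p = 0.864), negative under the 5 other scalings, and 0.07 without PBS 2 and 4. With 1 sample left out at a time it ran from -0.61 to -0.08. The 3 platelet genes measured, Ppbp with the integrin genes Itga2b (-0.28) and Itgb3 (-0.06), had a median log2 fold change of -0.22, and 0 of 3 had an unadjusted p under 0.05.

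Cxcr2, the receptor of the 5 ligands, is carried on neutrophils and a few other cells. It had normalized counts of 11.1, 9.32 and 16.6 in PBS 1, PBS 2 and 4 and PBS 3, and 28.0, 15.9, 19.4 and 10.6 in STING agonist 1 to 4. STING agonist 1 and 3 were above every PBS sample, and STING agonist 4 was among the PBS samples. The log2 fold change was 0.55 (SE 0.42, 95% confidence interval -0.39 to 1.5, edgeR adjusted p = 0.510), and it was positive under the 5 other scalings, at 0.32 or more. Its mean raw count was 15.9, against a background of 8.62 (the 8 negative control probes, their mean and 2 SD above it, averaged over samples), so that counting error is a large part of each value.

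Csf3r carries the signal of granulocyte colony-stimulating factor into neutrophils and their precursors. Its normalized count was 16.7 in PBS 1, 5.83 in PBS 2 and 4 and 23.8 in PBS 3, and 52.6, 13.4, 18.4 and 27.4 in STING agonist 1 to 4. STING agonist 1 and 4 exceeded every PBS sample, the averaged PBS sample was lowest (raw counts of 8 in PBS 2 and 2 in PBS 4), and the rest overlapped. The log2 fold change of 0.82 (SE 0.58, 95% confidence interval -0.50 to 2.14, edgeR adjusted p = 0.474) was the largest of the 10 genes, stayed positive under the 5 other scalings at 0.55 or more, and was 0.46 without PBS 2 and 4, 0.33 without STING agonist 1 and 1.28 without PBS 3. Csf3 itself was near background in every sample, with raw counts from 2 to 9 and a mean of 6. Its log2 fold change was -0.05 (95% confidence interval -0.98 to 0.88, edgeR adjusted p = 0.973), and the part of depth in this value was not tested.

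S100a8 encodes a subunit of calprotectin, a calcium-binding protein abundant in neutrophil cytoplasm. Its normalized count was 278 in PBS 1, 535 in PBS 2 and 4 and 313 in PBS 3, and 569, 265, 472 and 353 in STING agonist 1 to 4. High and low samples were present in both groups, with means of 375 ± 140 (SD, n = 3) and 415 ± 133 (SD, n = 4). The log2 fold change of 0.15 (SE 0.31, 95% confidence interval -0.56 to 0.85, edgeR adjusted p = 0.868) turned to -0.16 with TMM scaling and was 0.49 without PBS 2 and 4. The interval corresponds to folds from 0.679 to 1.81, and the raw counts were 217 to 550 per sample.

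Trem1, which amplifies inflammatory signals in neutrophils and monocytes, had normalized counts of 12, 10.5 and 18.7 in PBS 1, PBS 2 and 4 and PBS 3, and 15.2, 14.7, 12.3 and 11.5 in STING agonist 1 to 4. All treated samples lay within the PBS range. A log2 fold change of -0.06 resulted (95% confidence interval -0.82 to 0.70, edgeR adjusted p = 0.946).

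**Figure D2:**
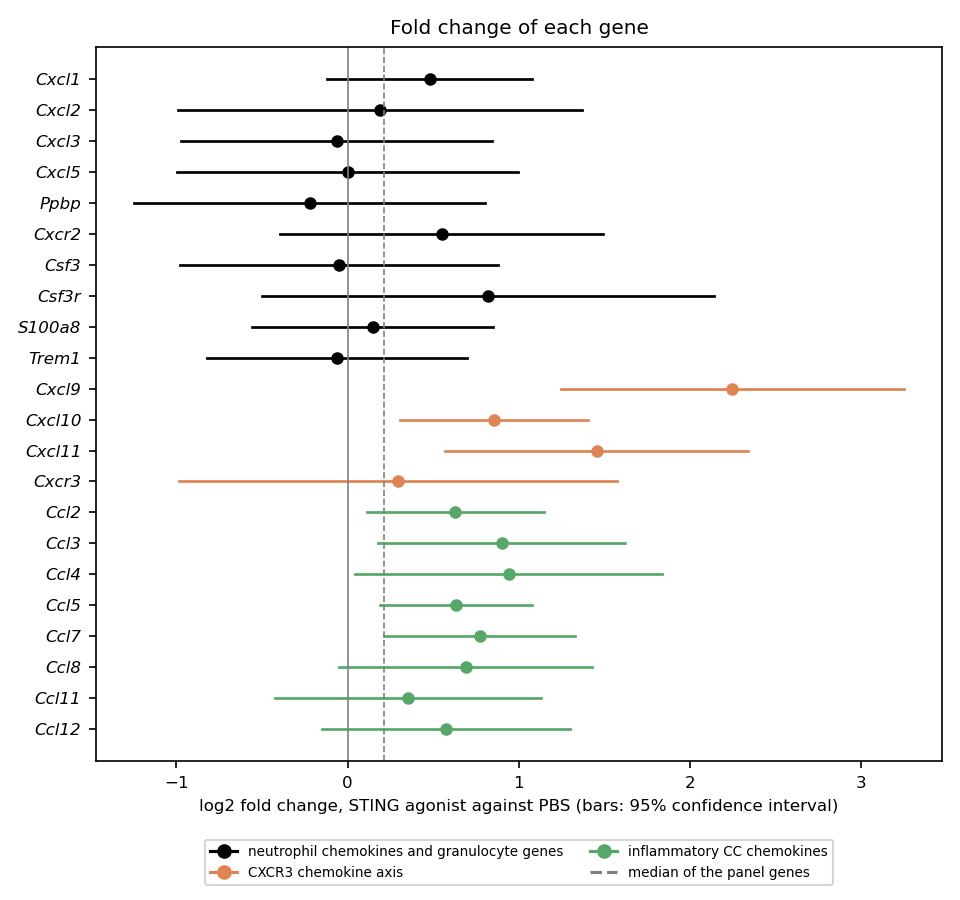
Log2 fold change of STING agonist against PBS (edgeR, 3 against 4 samples) with 95% confidence intervals for the 10 genes (black), the CXCR3 chemokine axis (orange) and the inflammatory CC chemokines (green); the dashed line is the panel median of 0.21. The intervals of all 10 genes include 0, and with TMM scaling the values of Cxcl2 and S100a8 turn negative.

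The 10 genes differed among themselves in which samples were high. STING agonist 1 was the highest sample for 6 genes (Cxcl1, Cxcl3, Cxcl5, Cxcr2, Csf3r and S100a8), and STING agonist 2 was the lowest for 4 (Cxcl3, Cxcl5, Csf3 and S100a8). PBS 2 and 4, high for Cxcl2, Ppbp and S100a8, was the lowest sample for the 3 receptor genes Cxcr2, Csf3r and Trem1. How often each sample was highest or lowest over the panel is not given, and the part of scaling in these ranks was not tested.

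Csf3 aside, the genes were above background on average, and these 9 formed 36 pairs, whose correlations over the 7 samples were positive by Spearman's rho in 32 and had a median of 0.39. The same values for pairs of other panel genes are not given, so these are not shown to be particular to the 9 genes. Cxcl2 and S100a8 were the closest pair, with Pearson r = 0.98 (exact permutation p = 0.00179, adjusted p = 0.0643) and Spearman rho = 0.929 (exact permutation p = 0.00675, adjusted p = 0.243 over 36 pairs). Without PBS 1 and PBS 2 and 4, the samples farthest from the median of Cxcl2, r was 0.977. Both genes were high in PBS 2 and 4, STING agonist 1 and STING agonist 3, and low in PBS 1, PBS 3 and STING agonist 2, so that both treatment groups had samples at either end. Under TMM scaling rho was 0.79.

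The next pairs were tied at rho = 0.821 (exact permutation p = 0.0341, adjusted p = 0.307). For Cxcl1 and S100a8, r was 0.615 (exact permutation p = 0.137, adjusted p = 0.504) and -0.0837 without STING agonist 1 and PBS 1, so the relation rests on those samples. For Cxcl3 and Cxcl5, r was 0.896 (exact permutation p = 0.00635, adjusted p = 0.114) and 0.619 without STING agonist 1 and 2. For Cxcr2 and Trem1, r was 0.629 (exact permutation p = 0.128, adjusted p = 0.504) and 0.490 without STING agonist 1 and PBS 2 and 4, and under TMM scaling rho was 0.11. No pair passed adjustment over the 36. With group means removed, run as an alternative, Cxcl2 and S100a8 had rho = 1 and a permutation adjusted p of 0.0143. That permutation moved values freely across the groups, although removing the means ties the values within a group. Its p is therefore not exact, and no call is made from it.

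**Figure D3:**
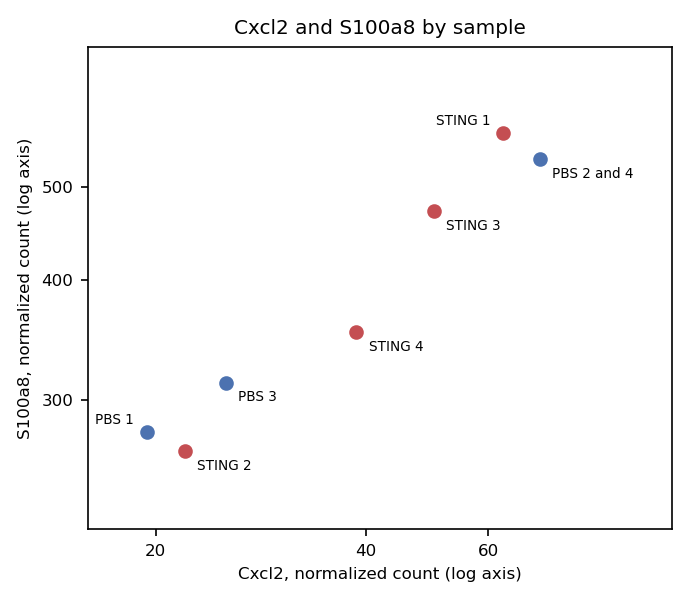
Normalized counts of Cxcl2 (x axis, log scale) and S100a8 (y axis, log scale) in the 3 PBS samples (blue) and the 4 STING agonist samples (red). Samples high for one gene were high for the other (rho = 0.929) with the groups mixed, PBS 1 and STING agonist 2 at the low end and STING agonist 1 and PBS 2 and 4 at the high end; within each of these pairs the order differed between the genes.

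Of 15 listed neutrophil markers 11 were measured, and 4 of these (S100a8, Csf3r, Cxcr2 and Trem1) are among the 10 genes, so that they add nothing to the values above. Of the 7 others, 0 had an unadjusted p under 0.05, and 4 were at or below background. These were the granule genes Mpo, Elane and Ltf, made in immature granulocytes, and the receptor gene Cxcr1, named after their values were seen. S100a8 was the most abundant marker. Summed normalized counts of the 11 markers were 533 in PBS 1, 970 in PBS 2 and 4 and 666 in PBS 3, and 918, 512, 888 and 1200 in STING agonist 1 to 4. The last value held 649 normalized counts of Lcn2, an iron-binding granule protein that liver and epithelium also make (126, 303 and 183 with PBS, 146, 153 and 227 in the other treated samples). Camp, the cathelicidin granule gene, named after its values were seen, had 51.3 normalized counts in PBS 2 and 4, 37.8 in STING agonist 3 and between 12.2 and 22.1 elsewhere. It shared the first of these as its highest sample with Cxcl2, but STING agonist 1, high for Cxcl2, was among the low samples for Camp. Fpr2, also above background and also named after its values were seen, was arranged differently. It had 60.1, 38.5 and 66.3 normalized counts with PBS and 74.7, 25.7, 65.4 and 109 in STING agonist 1 to 4. The log2 fold changes were -0.22 for Camp and 0.32 for Fpr2.

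STING agonist 4 also carried hepatocyte genes. The summed normalized counts of 14 such genes, of 17 listed, were 1883 in this sample and between 89.7 and 147 in the others, with Ambp, a plasma protein gene and the most abundant of them, at 762 against at most 11.7, Hamp at 250 against at most 8.18 and F12 at 71.5 against at most 7.01. Without this sample Lcn2 had a log2 fold change of -0.21 in place of 0.53, and the part of the hepatocyte genes in the neutrophil marker values was not tested. Without this sample the 10 genes kept 0 calls at an unadjusted p under 0.05, against 89 of 750 panel genes. Their groups overlapped there as well, whereas 137 of the 750 were higher and 19 lower without overlap.

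Signals upstream of the ligands were described with 29 inducer genes, of which 27 were measured. Their median log2 fold change was 0.14. An unadjusted p under 0.05 was reached by 2 with higher and 0 with lower values, against 133 and 10 of 750 panel genes. Il1b, the gene of interleukin-1 beta, had normalized counts of 13.0, 37.3 and 31.7 in PBS 1, PBS 2 and 4 and PBS 3, and 187, 59.9, 46.0 and 89.1 in STING agonist 1 to 4. All treated samples lay above all PBS samples, with STING agonist 1 the highest, as it was for Cxcl1, Cxcl3 and Cxcl5. Its log2 fold change was 1.80 (SE 0.56, 95% confidence interval 0.53 to 3.08, edgeR unadjusted p = 0.0109, adjusted p = 0.181), and it passed adjustment with DESeq2. Ptgs2, the prostaglandin synthase COX-2, showed 123, 219 and 192 with PBS and 811, 211, 220 and 446 with the agonist (log2 fold change 1.24, edgeR unadjusted p = 0.0300, adjusted p = 0.223), and here STING agonist 2 lay within the PBS range. With 1 sample left out at a time, the log2 fold change of Ptgs2 ran from 0.72 to 1.465. The NF-kB subunit gene Rel was at 0.33 (edgeR unadjusted p = 0.146), and Hif1a, the most abundant of the list, at 0.05, with -0.22 under TMM scaling.

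Genes of the neutrophil surface and of effector functions, many of which monocytes and macrophages share, numbered 37, of which 29 were measured. At an unadjusted p under 0.05, 6 were higher and 1 was lower, against 133 and 10 of 750 panel genes. The median log2 fold change was 0.39. Gfi1, a transcriptional repressor needed for neutrophil maturation, was the lower one: it had 10.2, 12.8 and 16.6 normalized counts with PBS and 5.84, 6.11, 5.11 and 7.06 with the agonist, which put all treated samples below all PBS samples. Its log2 fold change was -1.12 (95% confidence interval -1.86 to -0.38, edgeR unadjusted p = 0.00793, adjusted p = 0.181), and its mean raw count of 9.71 was close to background. The integrin subunit gene Itgb2 (0.66) and the NADPH oxidase gene Cybb (1.27) were higher in all treated samples than in all PBS samples, both with edgeR adjusted p above 0.2. Cebpb, the most abundant of the list and a transcription factor of emergency granulopoiesis, was at 0.01, and at -0.27 with TMM scaling.

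On the endothelial side, where neutrophils adhere before they leave the vessel, 7 of 9 listed recruitment genes were measured. Their median log2 fold change was 0.38. Against 133 of 750 panel genes, 2 of the 7 were higher at an unadjusted p under 0.05. These were the adhesion molecule gene Icam1 (log2 fold change 0.91, edgeR unadjusted p = 0.0223, adjusted p = 0.217) and Cxcl12 (1.07, edgeR unadjusted p = 0.0321, adjusted p = 0.227). Without PBS 3, Cxcl12 had a log2 fold change of 1.90 and passed adjustment in edgeR. Icam2 was at 0.54, and Vcam1, the most abundant, at 0.38. The 6 endothelial markers had a median of 0.44, with 2 higher at an unadjusted p under 0.05, Kdr (1.05, past adjustment with DESeq2) and Eng (0.45), beside Cdh5 (0.43) and Pecam1 (0.25, and -0.00133 with TMM scaling). Their summed normalized counts were 346, 457 and 434 with PBS and 589, 570, 593 and 559 with the agonist.

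A general leukocyte marker separated the groups. Ptprc, the gene of the common leukocyte antigen CD45, had normalized counts of 108, 42.0 and 111 in PBS 1, PBS 2 and 4 and PBS 3, and 257, 166, 140 and 267 in STING agonist 1 to 4, a log2 fold change of 1.24 (SE 0.38, 95% confidence interval 0.39 to 2.10, edgeR unadjusted p = 0.0095, adjusted p = 0.181). All treated samples were above all PBS samples. Of 13 macrophage and monocyte markers 12 were measured, with a median log2 fold change of 0.53. An unadjusted p under 0.05 was reached by 5, 3 positive and 2 negative, against 133 and 10 of 750 panel genes. Ptprc and Ccr2 passed adjustment with DESeq2. Ccr2, the receptor of inflammatory monocytes, was at 1.48 and the macrophage gene Emr1 at 1.29, while the scavenger receptor gene Cd163 was at -1.32 and Cd68, the most abundant, at 0.30. Summed normalized counts of the 12 were 2308, 1234 and 3134 with PBS and 3449, 2505, 2835 and 3420 with the agonist, lowest in PBS 2 and 4, the sample in which Cxcl2 was highest.

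Against this background the 10 genes were set relative to Ptprc within each sample, as log2((count + 1)/(Ptprc count + 1)). The ratio was on average lower in the treated tumors for all 10, with a median difference of -1.24, against -1.08 over the 749 panel genes other than Ptprc, of which 713 were lower. Since Ptprc is the denominator, its own log2 fold change of 1.24 enters every one of these differences. It was lower without overlap for 4 of 10 (Cxcl3, Cxcl5, Csf3 and Trem1), against 329 of 749 panel genes (43.9%), so that the share among the 10 was near that of the panel. Csf3 was at background, where the ratio follows mainly the Ptprc count. Among genes above background the counts were 3 of 9 and 289 of 611 (47.3%). For Trem1 the ratio was -3.08, -1.89 and -2.52 in PBS 1, PBS 2 and 4 and PBS 3, and -3.98, -3.40, -3.41 and -4.44 in STING agonist 1 to 4. The difference of -1.31 had an exact permutation p of 0.029 (two-sided, the smallest that 35 arrangements allow) and an adjusted p of 0.108 over the panel. Without PBS 2 and 4, in which every one of these ratios other than that of Csf3r was at its highest, the difference for Trem1 was -1.01. The number of the 10 genes without overlap was again 4. It could not change here, because PBS 2 and 4 was the lowest PBS sample for none of them. With 1 sample left out at a time this number ran from 4 to 6, and panel shares for these settings are not given. Leaving out PBS 1, PBS 3 or a treated sample can keep or raise the number but not lower it, so this range is no test of it.

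**Figure D4:**
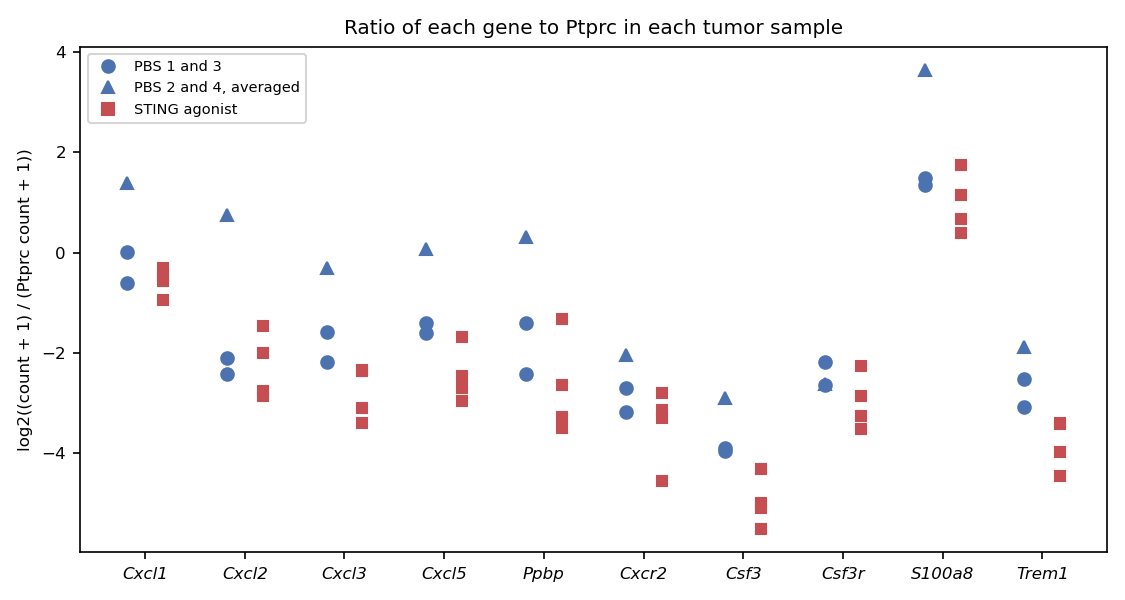
Log2 ratio of each of the 10 genes to Ptprc (counts plus 1, within a sample) in PBS 1 and 3 (blue circles), PBS 2 and 4 averaged (blue triangles) and the 4 STING agonist samples (red squares). The treated samples lie below every PBS sample for Cxcl3, Cxcl5, Csf3 and Trem1, and the averaged PBS sample is the highest for 9 of the 10 genes.

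Other chemokine groups of the same tumors were counted in the same way, and their difference from the 10 genes as groups was not tested. Over the panel, 143 of 750 genes (19.1%) had an unadjusted p under 0.05, 133 of them higher. The CXCR3 chemokine axis, which draws T and NK cells, had 3 of 4 genes higher at an unadjusted p under 0.05 and a median log2 fold change of 1.16, with Cxcl9 at 2.25, Cxcl11 at 1.46, Cxcl10 at 0.86 and the receptor Cxcr3 at 0.30. The 8 inflammatory CC chemokines, which draw monocytes, eosinophils and T cells, had 5 higher and a median of 0.66, with Ccl3 at 0.90, Ccl4 at 0.94, Ccl7 at 0.77, Ccl5 at 0.63, Ccl2 at 0.63, Ccl8 at 0.69, Ccl12 at 0.58 and Ccl11 at 0.35. The lowest edgeR adjusted p of these 12 genes was 0.171. Cxcl9, Cxcl10 and Cxcl11 passed adjustment with the Wald test of DESeq2, as Cxcl9 did in edgeR without STING agonist 3.

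The difference from Cxcl10 was tested within samples, as the log2 ratio of each of the 10 genes to Cxcl10. The ratio was lower in the treated tumors for all 10 on average and for 636 of 749 panel genes, with median differences of -0.81 and -0.65, and the log2 fold change of Cxcl10 itself, 0.86, enters each of them. It was lower without overlap for 2 of 10 (Csf3 and Trem1), against 221 of 749 (29.5%). Without genes at background, Csf3 among them, the counts were 1 of 9 and 190 of 611 (31.1%). Among the ligands, the difference was -0.41 for Cxcl1 (exact permutation p = 0.4), -0.57 for Cxcl2 (exact permutation p = 0.571), -1.01 for Cxcl3 (exact permutation p = 0.143), -1.05 for Cxcl5 (exact permutation p = 0.114) and -1.08 for Ppbp (exact permutation p = 0.229). None of the ligands was separated from Cxcl10 in its response by this test.

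Eosinophil, mast cell and epithelial genes were described as well. The 3 eosinophil genes measured were at or below background (Prg2 at a log2 fold change of 0.42, Il5ra at -0.24 and Ccr3 at 0.26), as were 2 of the 4 mast cell and basophil genes (Ms4a2 at -0.92, Tpsab1 at -0.50), beside Fcer1a (-0.37) and Kit (0.14, and -0.09 with TMM scaling). The epithelial genes Cdh1 (-0.70) and Epcam (-0.39) were lower on average, and 0 of these 9 genes had an unadjusted p under 0.05. Summed normalized counts of eosinophil genes were between 10.2 and 20.9, of mast cell and basophil genes between 21.3 and 44.7 and of epithelial genes between 15.9 and 48.3 over the 7 samples.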

How the data were processed

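RNA of 8 deposited samples was counted by the authors on the NanoString nCounter mouse PanCancer Immune panel, and they deposited the whole-number counts of 784 probes (750 genes, 20 housekeeping genes, 8 negative and 6 positive controls), not scaled or background-subtracted, with a lowest count of 1. Groups and replicate numbers came from the sample titles, and age, dose and times from the labels and the study's methods. Counts of PBS 2 and 4, which may be 1 library deposited under 2 names, were averaged and rounded. The housekeeping geometric mean of each sample set its library size, and edgeR 4.0.16 under R 4.3.3 fitted all 750 genes (quasi-likelihood) without filter or covariate, with Benjamini-Hochberg adjustment. Ratios and correlations were tested by two-sided exact permutation (Python 3.11.15), with a pseudocount of 1. With group means removed, the permutation of correlations crossed the groups and was not exact. This scale takes the housekeeping genes as unaffected by treatment; TMM moved the panel median from 0.21 to -0.02, and relative to the panel median Cxcl1 was at 0.27, Cxcr2 at 0.34, Csf3r at 0.61 and the 7 other genes between -0.43 and -0.02. Alternatives were TMM, DESeq2 size factors, the total count, the positive controls or housekeeping genes of at least 100 counts as scale, a mean of at least 20 counts, background subtraction, DESeq2 1.42.0, limma 3.58.1 with pseudocounts of 1 and 20, the methods' per-gene test, PBS 2 and 4 apart, the replicate block and each sample left out. Leaving out both PBS 2 and 4, the ratio to Cxcl10 and the counts among genes above background were added after the data were seen. The edgeR and group permutation tests were tested on simulated data. The members and lists were chosen with earlier results of these data known. Named were the 10 genes, the genes of the CXCR3 and CC chemokine groups and, from each other list, the 3 lowest unadjusted p and the most abundant gene. Camp, Fpr2, Mpo, Elane, Ltf and Cxcr1 were named outside this rule after their values were seen.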

Additional observations from a re-analysis of the deposited data

Results flagged for a closer look

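In the STING agonist group, the only one with 4 separate samples, 7 of 64 genes had 1 sample whose gap to the next, as a share of the group's range, exceeded Dixon's 95% limit; chance gives about 1 in 20, and as the genes, the hepatocyte genes among them, were chosen with earlier results known, the number is a description and no test. Of the 10 neutrophil chemokine and granulocyte genes, 2 did so: Cxcl5 was set apart by STING agonist 1 (0.835) and Ppbp by STING agonist 3 (0.915). STING agonist 1 was also apart for Icam2 (0.888). STING agonist 4 was apart for Lcn2 (0.839) and for the hepatocyte genes Ambp (0.988), F12 (0.951) and Hamp (0.982).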

How the results depend on the processing

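Under the 22 alternatives, 0 of the 10 genes had an unadjusted p under 0.05. Cxcl1, Cxcr2 and Csf3r kept positive fold changes wherever they were fitted (with 1 sample left out, 0.29 to 0.58, 0.28 to 0.83 and 0.33 to 1.28), and Cxcr2, Csf3 and Trem1 had no value with the filter at a mean of 20 counts. The panel count of adjusted calls, 0 in edgeR, was 44 with DESeq2 (Il1b, Ptprc, Ccr2, Kdr, Cxcl9, Cxcl10 and Cxcl11 among the named genes) and ranged from 0 to 7 with 1 sample left out (7 without STING agonist 3, Cxcl9 among them, and 1, Cxcl12, without PBS 3), and that of unadjusted calls ranged from 84 to 160 (84 without STING agonist 1, 89 without STING agonist 4).

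Log2 fold changes that turned sign were as follows, and the cause was not tested. With TMM scaling, Cxcl2 was -0.14, S100a8 -0.16, Cebpb -0.27, Hif1a -0.22, Kit -0.0941 and Pecam1 -0.00133. With DESeq2 size factors, Cxcl2 was -0.15, S100a8 -0.17, Cebpb -0.28, Hif1a -0.23, Kit -0.11 and Pecam1 -0.0138. With the total count, S100a8 was -0.0402, Cebpb -0.19, Hif1a -0.15 and Kit -0.0416. With the background subtracted, Csf3 was 0.19, Cxcl5 0.0207, Trem1 0.00167 and Il5ra 0.20. With PBS 2 and 4 as separate samples, Csf3 was 0.0162, Cxcl2 -0.0918, Trem1 0.0228, Cebpb -0.0721 and Itgb3 0.0308. With both left out, Cxcl5 was 0.0678, Ppbp 0.074, Camp 0.62 and Cxcr3 -0.0747.

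With 1 sample left out at a time, signs turned within these ranges: Cxcl2 from -0.13 to 0.41, Cxcl3 from -0.42 to 0.11, Cxcl5 from -0.55 to 0.18, Csf3 from -0.18 to 0.18, S100a8 from -0.0427 to 0.31, Trem1 from -0.15 to 0.24, Cebpb from -0.16 to 0.0868, Hif1a from -0.0487 to 0.16, Cxcr3 from -0.18 to 0.61, Ccr3 from -0.0558 to 0.98, Il5ra from -0.43 to 0.0639, Itga2b from -0.69 to 0.0263, Itgb3 from -0.21 to 0.0532, Kit from -0.15 to 0.34, Lcn2 from -0.21 to 0.76 and Hamp from -0.058 to 3.89.

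With the replicate number as a block and PBS 2 and 4 apart, adjusted calls were 0 and unadjusted ones 172 (201 with PBS 2 and 4 apart and no block), and values that turned sign were Trem1 0.0625, Cebpb -0.0742, Hif1a -0.00819 and Itgb3 0.0389; same-numbered samples had deviations from their group means that correlated at -0.06, -0.08, -0.28 and -0.13, so the numbers did not pair the samples. The correlation of Cxcl2 and S100a8 reached rho = 1 with group means removed (permutation adjusted p = 0.0143, not exact in this setting, range over its alternatives 0.0143 to 0.432). Raw counts were 2 to 26 for Csf3, Cxcr2 and Trem1, and the part of depth in their results was not tested.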
